A study of Mus musculus with 13 samples.

Results

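The 56 genes described here encode the machinery that brings proteins into mitochondria, the factors that fuse, divide, move and clear the organelle, and proteins of its outer membrane. They were given as a list of symbols, chosen with earlier results of these data known but by no rule on their values, and all 56 were found among the 27071 features of the deposited table. RNA bound by dAKAP1, which anchors kinase A at the mitochondrial surface, was measured by pull-down with a bait made of its KH and Tudor domains (KHT) in total RNA of MA-10 cells. MA-10 is a mouse Leydig tumour cell line that makes steroids, and it is the only source of RNA in the series. Of 13 libraries, 4 were pulled down with KHT, 5 with a control bait (NEG), and 4 hold the input RNA (IPT). NEG baits were empty antiMBP beads, MBP (the maltose-binding protein) or KHT(GDDG), and the labels do not tell which library had which. NEG 2 held no counts and was left out, so each group had 4 libraries, and NEG 1, 3, 4 and 5 are the control libraries below. The description of the KHT libraries speaks of negative controls while their titles and treatment name KHT, and the titles were followed. Since RNA and protein were mixed outside the cell, a level reflects what the purified bait held and not where an RNA lies in a cell.

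Almost all mitochondrial proteins are made in the cytosol and enter through the TOM complex of the outer membrane. The SAM complex then inserts barrel proteins, small TIM chaperones carry hydrophobic cargo across the intermembrane space, and the TIM22 and TIM23 complexes serve the inner membrane, the last with the PAM motor on the matrix side. Mitofusins and OPA1 fuse mitochondria, while DRP1 (the product of Dnm1l) divides them at receptors on the outer membrane. Some messenger RNAs of this kind are known, largely from yeast, to be translated close to the mitochondrial surface.

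Estimated counts per library ran from 1955446 to 3689792 in KHT, from 1162178 to 1618998 in NEG and from 2487679 to 3085423 in IPT. However, 9 features, each with at least 0.5% of pooled NEG counts, took 42.9% ± 9.88 of counts in KHT, 97.1% ± 0.964 in NEG libraries and 32.6% ± 5.62 in IPT libraries (SD, n = 4 in each group). Outside these, 929348 to 2101632 counts were left in a KHT library, 31318 to 49062 in a NEG library and 1542713 to 2237374 in an IPT library. All 8 Leydig cell markers had counts, and their sum, in CPM (counts scaled to a fixed library total), ran from 711 to 1195 in KHT, from 0 to 75.5 in NEG and from 930 to 1902 in IPT. Of 5 Sertoli cell markers, 3 had counts in KHT, none in NEG and 4 in IPT, with sums of up to 10.7, 0 and 10.1 CPM. The 2 germ cell markers and the 1 macrophage marker in the file had no NEG counts, and their sums did not pass 11.3 CPM in KHT or IPT. Epithelial markers had counts for 5 of 5 genes in KHT, 4 in NEG (Krt16 at 0) and 4 in IPT, with sums of 2.85 to 71.6 CPM in KHT, 0 to 31.8 CPM in NEG and 3.62 to 11.02 CPM in IPT. The 2 endothelial markers summed to 31.7 to 51.8 CPM in KHT, 5.75 to 22.4 CPM in NEG and 32.2 to 86.5 CPM in IPT. All these marker sums are scaled to totals that include the 9 features. Low sums in NEG therefore do not by themselves give the marker shares among the remaining counts, which were not computed. The NEG libraries differed here, since all 8 Leydig cell markers had counts in NEG 5 and none had any in NEG 1. Nr5a1, for one, had 0, 8, 4 and 30 counts in NEG 1, 3, 4 and 5, and Star had 0, 0, 0 and 7. All 56 genes passed the filter on low counts through their KHT and IPT libraries. CPM values below are scaled by TMM, which takes most genes as unchanged and gave each NEG library a far smaller effective size than its total.

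KHT 1, KHT 2 and IPT 1 stood apart from the other 5 KHT and IPT libraries. Asns, which makes asparagine, stood at 49.4, 42.5, 12.9 and 18.1 CPM in KHT 1 to 4 and at 44.7, 6.48, 9.08 and 8.36 CPM in IPT 1 to 4. Trib3, a pseudokinase of the amino acid stress response, stood at 86.5, 72.4, 5.99 and 5.22 CPM in KHT and at 77.3, 1.55, 5.66 and 2.09 CPM in IPT. Both genes were picked after their values were seen. The split crosses the groups, with 2 such libraries in KHT and 1 in IPT, so the calls against NEG that are lost without these 3 libraries are given with that value. Which step separated them was not tested.

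Together, the 56 genes held a like share of the remaining counts in KHT and in IPT and a smaller one in NEG. Outside the 9 features they took 0.659, 0.588, 0.576 and 0.568% in KHT 1 to 4. The shares were 0.208, 0.206, 0.312 and 0.534% in NEG 1, 3, 4 and 5, and 0.624, 0.572, 0.596 and 0.587% in IPT 1 to 4. All 4 NEG libraries lay below every KHT and IPT library, with NEG 5 closest to them. A lower share in NEG was not particular to this list. The 99 other genes of the same pathways, described below, took 1.48% of the pooled remaining counts in KHT, 0.834% in NEG and 1.52% in IPT. Their share in NEG 5, 1.32%, lay above that in KHT 2, 1.27%. The means were 0.598% ± 0.0419 in KHT, 0.315% ± 0.154 in NEG libraries and 0.595% ± 0.0218 in IPT libraries (SD, n = 4 in each group). In raw terms the 56 genes had 35016 counts in KHT, 516 in NEG and 45345 in IPT. Of the NEG counts, 262 came from NEG 5, where 38 genes had a count, against 12, 20 and 20 genes in NEG 1, 3 and 4.

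**Figure D1:**
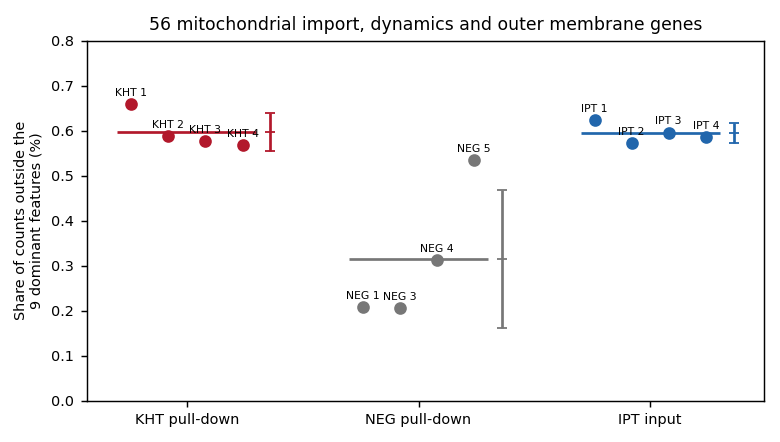
Share of counts outside the 9 dominant features, in percent (y axis), taken by the 56 genes in each KHT, NEG and IPT library (points); lines are group means and bars are SD (n = 4 each). The NEG libraries lie between 0.206 and 0.534%, below the KHT libraries (0.568 to 0.659%) and the IPT libraries (0.572 to 0.624%).

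The comparison of KHT with IPT asks whether the bait held these RNAs more or less than their level in the input would give. None of the 56 genes passed the threshold (edgeR adjusted p below 0.05), higher or lower. Over all 10714 genes tested, 0.00933% were called higher and 0.00% lower. No gene of the list had an unadjusted p under 0.05 either, the smallest being that of Pam16, while 1.63% of all genes tested had one. DESeq2 and limma voom also called 0 of the 56 genes. The median log2 fold change, KHT over IPT, was -0.02 over the 56 genes and 0.01 over all genes tested, with 26 positive and 30 negative values. The estimates ran from -0.47 for Timm23 to 0.78 for Pam16, and 51 of 56 lay under 0.3 in size.

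How large a difference these libraries leave room for is given by the intervals. The 95% interval lay within a 2-fold change either way for 38 of 56 genes. It reached past 2-fold for the other 18, among them Hspa9 (-1.23 to 1.81), Timm23 (-1.97 to 1.02) and Vdac3 (-0.75 to 1.42). With the spread estimated from the KHT and IPT libraries alone, 49 of 56 intervals lay within 2-fold. In no gene of the list did the KHT and IPT libraries separate without overlap, while 0.840% of all tested genes lay wholly higher in KHT and 1.17% wholly lower.

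**Figure D2:**
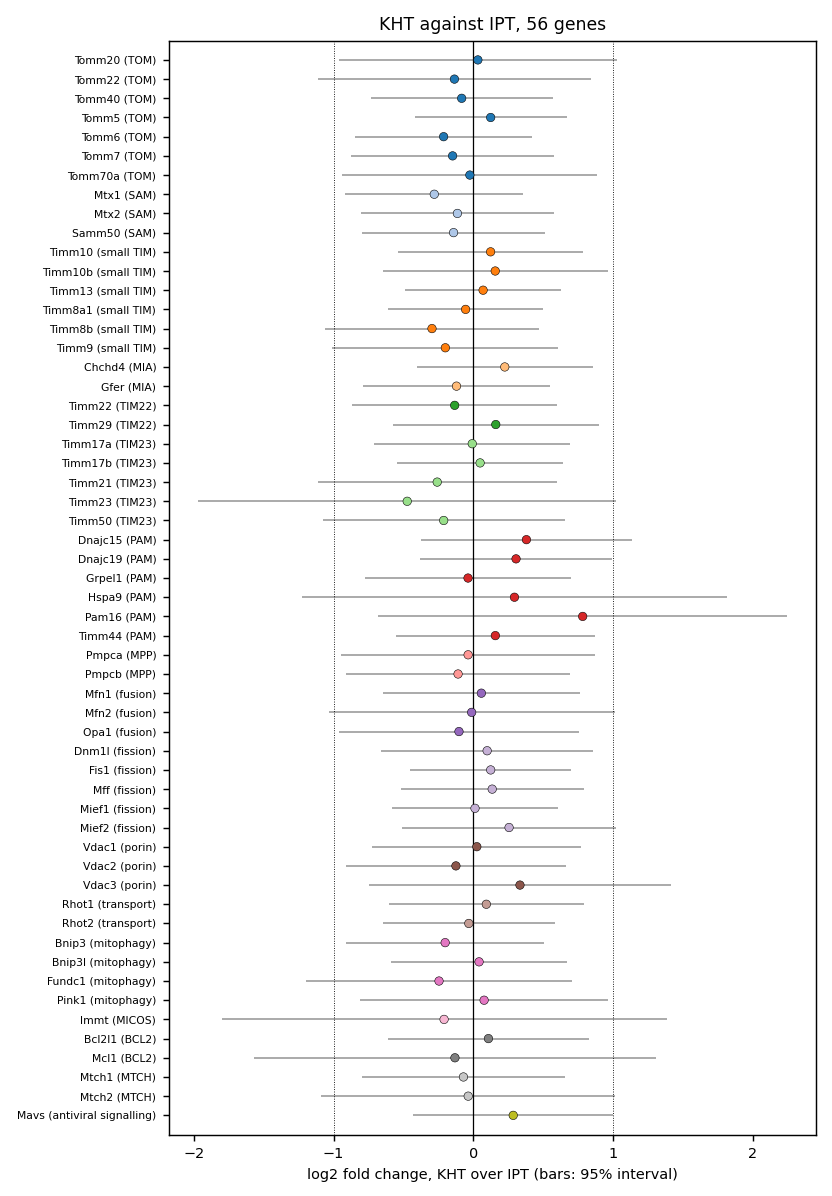
Log2 fold change of KHT over IPT (x axis) for the 56 genes, with their complex or role in brackets (y axis); points are edgeR estimates, bars 95% intervals, and dotted lines mark a 2-fold change. All intervals cross 0, and 38 lie wholly within the dotted lines.

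Against NEG, the question was which of these RNAs stuck to the bait more than to beads and control proteins. Here 19 of the 56 genes (33.9%) were called higher in KHT, against 31.0% of all genes tested. A further 2 (3.57%), Vdac2 and Dnajc19, were called lower, against 2.72% of all genes. The median log2 fold change was 1.39 over the list and 1.73 over all genes tested. With genes at 0 in NEG set to their lower bound, 7 in the list and 2986 in all, the medians were 1.23 and 0.94. Libraries did not overlap for 21 genes (37.5%) that lay higher in KHT and for 1 (1.79%) that lay lower, against 45.8% and 1.02% of all tested genes. These shares are near the background, and so the list as a whole did not stand out from other genes in this comparison. Of the 21 genes with at most 3 NEG counts 12 were called higher, and of the 35 with at least 4 it was 7. Since NEG counts enter the comparison itself, calls depend on this split by construction. The like shares over all genes were not computed, so the split is no result about these genes.

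**Figure D3:**
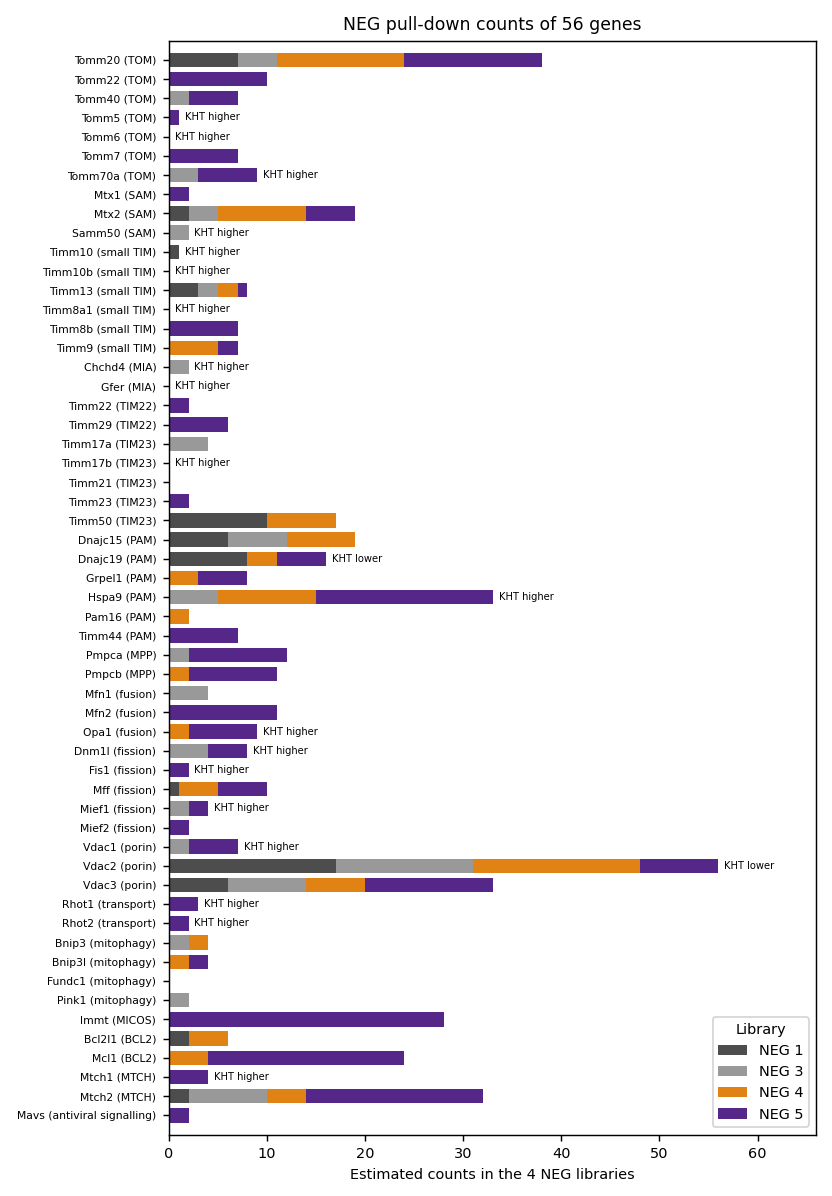
Estimated counts of each of the 56 genes (y axis, complex or role in brackets) in the 4 NEG libraries, stacked by library (x axis); words beside a bar mark genes called higher or lower in KHT than in NEG. Vdac2 has the longest bar with 56 counts, 7 genes have none, and NEG 5 (purple) alone supplies 17 genes.

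In the TOM complex, the entry gate, 3 of 7 subunits (42.9%, against 31.0% of all genes tested) exceeded NEG in the KHT pull-downs. None passed the threshold between KHT and IPT. Tomm5, a small subunit that stabilises the gate, stood at 11.8, 13.9, 11.7 and 13.7 CPM in KHT, at 0, 0, 0 and 4.09 CPM in NEG and at 10.7, 10.8, 12.1 and 13.2 CPM in IPT. Its only NEG count lay in NEG 5, and every KHT library was above every NEG library. The pooled ratio of KHT to NEG was 9.91 with a counting interval of 1.77 to 393 (edgeR adjusted p = 0.00923). Tomm6, another small subunit, had 7.35, 8.90, 8.92 and 9.44 CPM in KHT, none in any NEG library, and 5.33, 12.0, 11.3 and 11.5 CPM in IPT. The NEG level was set to 3 counts, about the upper 95% counting limit when 0 are seen over all NEG libraries. Against that, the level in KHT was at least 2.26-fold higher (edgeR adjusted p = 0.0132). Tomm70a, a receptor for carrier proteins bound to chaperones, was higher in KHT by 2.05 ± 0.64 on the log2 scale (SE; adjusted p = 0.022), with NEG counts of 0, 3, 0 and 6. Its call was lost without NEG 4 (adjusted p = 0.055) and without KHT 1, KHT 2 and IPT 1 (0.0557). It was also lost with only KHT and NEG fitted (0.0779).

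The main receptor and the pore of that complex did not pass the threshold. Tomm20, which binds presequences, stood at 66.4, 58.7, 68.1 and 75.5 CPM in KHT, at 29.7, 24.1, 87.0 and 57.2 CPM in NEG and at 60.7, 65.7, 65.8 and 70.6 CPM in IPT. NEG 4 lay above all KHT libraries, so the groups overlapped (log2 fold change 0.46 ± 0.53, adjusted p = 0.48). Tomm40, the pore itself, stood at 23.1, 17.8, 18.3 and 15.9 CPM in KHT, at 0, 12.1, 0 and 20.4 CPM in NEG and at 19.6, 21.0, 21.9 and 17.5 CPM in IPT. Its 7 NEG counts left a log2 fold change of 1.11 ± 0.61 (adjusted p = 0.145). Tomm22 and Tomm7, a receptor and a small subunit, had counts in NEG 5 alone, 10 and 7 of them, and gave 1.55 ± 0.72 and 0.36 ± 0.69. KHT and IPT differed in the complex by log2 values between -0.21 and 0.12.

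Of the SAM complex, 1 of 3 genes (33.3%, against 31.0% of all genes tested) was higher in KHT than in NEG. Samm50, the barrel at its core, stood at 22.4, 31.7, 25.1 and 20.1 CPM in KHT, at 0, 12.1, 0 and 0 CPM in NEG and at 25.2, 30.6, 25.8 and 28.0 CPM in IPT. Its 2 NEG counts gave a pooled ratio of 9.80 (counting interval 2.70 to 81.1; adjusted p = 0.00691), and no NEG library reached the KHT range. The metaxins, which act at the cytosolic face of SAM, were not called: Mtx2 had 19 NEG counts spread over all 4 libraries (0.06 ± 0.47) and Mtx1 had 2 (pooled ratio 2.62, counting interval 0.715 to 21.8).

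In the intermembrane space 5 of 8 genes (62.5%, against 31.0% of all genes tested) were called higher in KHT against NEG, 3 of the 6 small TIM chaperones and both genes of the MIA pathway. Of these 5 calls, those of Timm8a1 and Gfer held under all other settings, while those of Timm10, Timm10b and Chchd4 did not. Timm8a1 encodes the mouse counterpart of the human deafness-dystonia protein. It had 9.71, 10.96, 10.96 and 9.19 CPM in KHT, none in NEG, and 9.59, 9.44, 11.3 and 12.1 CPM in IPT. Its level was at least 2.73-fold higher in KHT than in NEG, and it had the smallest p of the list (adjusted p = 0.00592). Its paralogue Timm8b had 8.66, 7.31, 13.2 and 12.7 CPM in KHT, 0, 0, 0 and 28.6 CPM in NEG, and 10.1, 14.8, 13.1 and 13.6 CPM in IPT. The 7 counts of NEG 5 put that library above all KHT libraries (0.29 ± 0.73, adjusted p = 0.762). Timm8a1 and Timm8b thus differed in their calls through 7 counts of 1 library, and the difference between them was not tested.

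Timm10 and Timm10b, chaperone subunits that hold carrier proteins, were both higher in KHT. Timm10 had 1 NEG count and a pooled ratio of 7.96 (counting interval 1.42 to 316; adjusted p = 0.035), and Timm10b had none and was at least 1.22-fold higher (adjusted p = 0.0441). Leaving out single NEG libraries ended both calls, with adjusted p-values of 0.0774 for Timm10 without NEG 3 and 0.0928 for Timm10b without NEG 1. The call of Timm10 was lost in 8 of 23 other settings, with the highest adjusted p, 0.107, without KHT 1, KHT 2 and IPT 1. That of Timm10b was lost in 12 of 21, with the highest, 0.188, by limma voom. Timm13 had 15.8, 13.5, 13.1 and 8.44 CPM in KHT and counts in every NEG library (12.7, 12.1, 13.4 and 4.09 CPM), so the groups overlapped, and Timm9 gave 0.05 ± 0.77. In the MIA pathway, which folds proteins by making disulfide bonds, Gfer is the sulfhydryl oxidase and Chchd4 the import receptor. Gfer stood at 14.3, 5.48, 7.0 and 6.95 CPM in KHT, at 0 in all NEG libraries and at 10.7, 7.89, 10.4 and 8.26 CPM in IPT. This put it at least 2.38-fold higher in KHT than in NEG (adjusted p = 0.0166). Chchd4, with 2 counts in NEG 3, was likewise called (pooled ratio 5.45, counting interval 1.498 to 45.2; adjusted p = 0.032), but the call was lost in 9 of 23 other settings, with an adjusted p of 0.108 without NEG 1. KHT and IPT differed by log2 values between -0.30 and 0.22 over the 8 genes.

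The TIM23 complex, through which presequence proteins pass the inner membrane, had 1 of 5 genes called higher in KHT than in NEG. This is a smaller share than the 31.0% of all genes tested. Timm17b, a core subunit, stood at 9.98, 13.5, 8.47 and 14.2 CPM in KHT, at 0 in all NEG libraries and at 13.1, 12.3, 8.94 and 9.72 CPM in IPT. The level was at least 2.85-fold higher in KHT than in NEG (adjusted p = 0.00681). For its paralogue Timm17a the values were 14.6, 15.3, 21.8 and 15.9 CPM in KHT, 0, 24.1, 0 and 0 CPM in NEG, and 12.8, 19.9, 15.5 and 20.1 CPM in IPT. All 4 NEG counts of Timm17a lay in NEG 3, above every KHT library, and it missed the threshold (1.73 ± 0.77, adjusted p = 0.0815). Timm50, the receptor of the complex, had 7.35, 6.16, 10.6 and 7.45 CPM in KHT and 42.4, 0, 46.9 and 0 CPM in NEG (-1.43 ± 0.65, adjusted p = 0.0858). Timm21 had no NEG count, but its KHT level was too low for a bound on the fold.

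Timm23, the namesake subunit, had 16.9, 0, 14.8 and 13.9 CPM in KHT, 0, 0, 0 and 8.17 CPM in NEG, and 9.27, 18.5, 21.1 and 15.9 CPM in IPT. KHT 2 held no count of it, although the other KHT and IPT libraries did, and the cause of that 0 was not tested. Its 2 NEG counts gave a ratio of KHT to NEG of 5.05 (counting interval 1.39 to 41.9; adjusted p = 0.354), and the log2 fold change against IPT was -0.47 ± 0.68. Left out one by one, libraries moved the KHT to IPT value of Timm23 between -0.72 and -0.08. In the TIM22 complex, which inserts carrier proteins, Timm22 and Timm29 had their NEG counts, 2 and 6, in NEG 5 alone, and neither was called.

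The PAM motor gave calls in both directions against NEG, 1 higher and 1 lower among 6 genes. That is 16.7% each, against 31.0% higher and 2.72% lower of all genes tested. Hspa9, the mitochondrial Hsp70 (mortalin) that pulls proteins into the matrix, was at 252, 234, 134 and 122 CPM in KHT, at 0, 30.2, 66.9 and 73.5 CPM in NEG and at 246, 107, 133 and 118 CPM in IPT. Each KHT library exceeded each NEG library, and Hspa9 was higher in KHT by 2.13 ± 0.81 on the log2 scale (adjusted p = 0.0472). KHT 1, KHT 2 and IPT 1 held the 3 highest levels, and without those libraries the adjusted p was 0.270. The call was lost in 16 of 23 other settings, among them each of the 4 that leave out 1 KHT library. Dnajc19, a J-domain partner of the motor, had 6.83, 10.7, 5.42 and 8.69 CPM in KHT, 34.0, 0, 20.1 and 20.4 CPM in NEG, and 6.18, 6.90, 5.51 and 6.59 CPM in IPT. It was lower in KHT than in NEG (log2 fold change -1.34 ± 0.51, adjusted p = 0.0478), although NEG 3 with no count lay below all KHT libraries.

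The Dnajc19 call rested on 16 NEG counts and was lost in 16 of 23 other settings, and scaling by total counts alone turned its sign to 2.70. A named pseudogene, Dnajc19-ps, had 11 counts in NEG 3, where Dnajc19 had none, and how reads were shared between them is not given. Dnajc15, a related J-domain protein, had 6, 6, 7 and 0 NEG counts and was not called (-0.61 ± 0.55). Timm44, the anchor of the motor, and Grpel1, its exchange factor, gave 1.11 ± 0.67 and 1.5 ± 0.61 and missed the threshold. Pam16 had the largest KHT to IPT estimate of the list, 0.78 ± 0.68, with 4.73, 5.94, 3.84 and 8.94 CPM in KHT and 3.83, 0, 5.36 and 4.08 CPM in IPT. IPT 2 held no count of it, and the cause of that 0 was not tested. Pmpca and Pmpcb, the subunits of the matrix protease that removes presequences, were at 1.39 ± 0.63 and 1.09 ± 0.61 against NEG and were not called.

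Among the 3 fusion factors, Opa1 alone passed the threshold against NEG (33.3%, against 31.0% of all genes tested). Opa1, the inner membrane GTPase that also shapes cristae, stood at 40.8, 35.8, 38.9 and 36.3 CPM in KHT, at 0, 0, 13.4 and 28.6 CPM in NEG and at 46.9, 36.4, 41.4 and 38.5 CPM in IPT. KHT and NEG did not overlap, with a log2 fold change of 1.77 ± 0.63 (adjusted p = 0.0379). The call was lost in 14 of 23 other settings, with an adjusted p of 0.0955 without NEG 1. The mitofusins of the outer membrane gave 1.67 ± 0.71 for Mfn2 (adjusted p = 0.0693) and 0.97 ± 0.78 for Mfn1 (adjusted p = 0.307). Against IPT the 3 genes lay between -0.10 and 0.06.

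Of the 5 fission genes, 3 (60.0%, against 31.0% of all genes tested) stood higher in KHT against NEG. Dnm1l stood at 34.5, 39.0, 25.6 and 25.3 CPM in KHT, at 0, 24.1, 0 and 16.3 CPM in NEG and at 32.6, 24.5, 27.7 and 31.4 CPM in IPT. It was higher in KHT than in NEG by 1.62 ± 0.62 (adjusted p = 0.0479), with KHT 4 only slightly above NEG 3. This call was lost in 15 of 23 other settings, with an adjusted p of 0.136 without NEG 1. Mief1 encodes a receptor that recruits DRP1, and it had 20.6, 20.8, 20.1 and 25.3 CPM in KHT, 0, 12.1, 0 and 8.17 CPM in NEG, and 21.8, 21.7, 21.6 and 20.8 CPM in IPT. Its log2 fold change against NEG was 2.10 ± 0.63 (adjusted p = 0.0183, 0.053 without NEG 1 and 0.0614 with only KHT and NEG fitted). Against IPT it was 0.01 with a 95% interval of -0.58 to 0.61. Fis1, a small anchor in the outer membrane, had 2 counts in NEG 5 alone and was also called. The pooled ratio was 5.15 (counting interval 1.41 to 42.7, edgeR adjusted p = 0.0246). The Fis1 call was lost in 7 of 23 other settings, with the highest adjusted p, 0.0803, without NEG 1.

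Mief2, the paralogue of Mief1, had 4.07, 6.16, 3.73 and 4.47 CPM in KHT, 0, 0, 0 and 8.17 CPM in NEG, and 4.26, 4.23, 3.43 and 3.35 CPM in IPT. With 2 NEG counts, its ratio of KHT to NEG was 1.74, and the counting interval of 0.471 to 14.6 includes equality. Mff, a further receptor, had 10 NEG counts and a log2 fold change of 0.50 ± 0.56. All 5 fission genes had positive KHT to IPT values, between 0.01 and 0.26, none past the threshold. Over all genes tested the quartiles of this value were -0.16 and 0.18, and the sign of Dnm1l turned in 3 other settings.

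The Miro GTPases, which tie mitochondria to motor adaptors, were both higher in KHT than in NEG, as 31.0% of all genes tested were. Rhot1 stood at 35.6, 25.3, 21.5 and 18.4 CPM in KHT, at 0, 0, 0 and 12.3 CPM in NEG and at 32.6, 21.3, 19.7 and 21.1 CPM in IPT. Rhot2 stood at 9.98, 10.7, 14.6 and 17.9 CPM in KHT, at 0, 0, 0 and 8.17 CPM in NEG and at 11.2, 14.9, 14.7 and 13.4 CPM in IPT. All NEG counts of the pair, 3 for Rhot1 and 2 for Rhot2, came from NEG 5, and no NEG library reached a KHT library. The pooled ratios were 6.89 (counting interval 2.35 to 33.5; adjusted p = 0.0128) for Rhot1 and 5.18 (1.42 to 43.0; adjusted p = 0.0303) for Rhot2. Rhot1 was called in every other setting, while Rhot2 lost its call without NEG 1 (adjusted p = 0.101), NEG 3 or NEG 4.

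Porins are the channels through which metabolites cross the outer membrane, and of the complexes and roles in the list they were the only one whose share was not higher in KHT than in NEG. They took 0.0614% of the pooled counts outside the 9 features in KHT, 0.0622% in NEG and 0.0564% in IPT, whereas TOM took 0.0860% in KHT, 0.0467% in NEG and 0.0882% in IPT. This came from Vdac2, since the 3 genes moved apart. Vdac2 stood at 22.6, 32.0, 28.9 and 26.3 CPM in KHT, at 72.1, 84.4, 114 and 32.7 CPM in NEG and at 25.4, 30.4, 31.6 and 32.3 CPM in IPT. Every NEG library lay above every KHT library, NEG 5 by the least. With 17, 14, 17 and 8 NEG counts it was the best covered gene of the list in NEG. It was lower in KHT than in NEG by TMM scaling (-1.43 ± 0.43, adjusted p = 0.0176), while scaling by total counts alone gave 2.70. As a share of counts outside the 9 features it held 0.0117% ± 0.00145 in KHT, 0.0388% ± 0.0169 in NEG libraries and 0.0129% ± 0.0014 in IPT libraries (SD, n = 4 in each group). Without NEG 4 the adjusted p was 0.0578, without KHT 1 it was 0.0523, and without KHT 1, KHT 2 and IPT 1 it was 0.179.

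Vdac1 moved the other way, at 32.3, 34.2, 36.7 and 33.8 CPM in KHT, 0, 12.1, 0 and 20.4 CPM in NEG, and 31.4, 34.4, 33.8 and 35.1 CPM in IPT. It was higher in KHT than in NEG by 1.97 ± 0.61 (adjusted p = 0.0208). That p was 0.0541 without NEG 1, 0.0531 without NEG 4 and 0.0762 with only KHT and NEG fitted. The KHT and IPT libraries of Vdac1 spanned nearly the same range (0.02 ± 0.36). Vdac3 was not called against NEG, with 113, 112, 53.8 and 52.2 CPM in KHT, 25.5, 48.2, 40.2 and 53.1 CPM in NEG, and 114, 45.9, 57.6 and 45.3 CPM in IPT (0.99 ± 0.58, adjusted p = 0.169). Of the porin counts, Vdac2 made up 73.9, 58.3, 73.9 and 30.8% in NEG 1, 3, 4 and 5, each out of 23 to 26 counts. The exact binomial intervals were wide, 51.6 to 89.8% in NEG 1 and 14.3 to 51.8% in NEG 5.

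Hspa9 and Vdac3 carried the split between KHT 1, KHT 2 and IPT 1 and the other libraries most visibly. Vdac3 made up 67.3, 62.9, 45.0 and 46.5% of porin counts in KHT 1 to 4 and 66.7, 41.5, 46.9 and 40.2% in IPT 1 to 4. For Hspa9 the lowest of those 3 libraries had 234 CPM, against 134 CPM in the highest of the other 5, and for Vdac3 the values were 112 and 57.6 CPM. The mix of Miro genes shifted too, with Rhot1 at 78.1, 70.3, 59.6 and 50.7% of the pair in KHT and at 74.5, 58.8, 57.1 and 61.2% in IPT. In all, 7 of 56 genes (12.5%) lay above in all 3 libraries, namely Hspa9, Vdac3, Rhot1, Dnm1l, Dnajc15, Timm10 and Timm22. Another 7 (12.5%) lay below, namely Tomm22, Mcl1, Timm8b, Rhot2, Tomm6, Timm17a and Timm50. Over all tested genes the shares were 14.6% above and 13.9% below, so the list did not exceed the background. Without those 3 libraries, 9 of the 21 calls between KHT and NEG were lost, with adjusted p-values of 0.0548 for Timm10b, 0.0557 for Tomm70a, 0.0562 for Opa1, 0.0615 for Fis1, 0.0635 for Chchd4, 0.107 for Timm10, 0.120 for Dnm1l, 0.179 for Vdac2 and 0.270 for Hspa9. The stress genes named above were high in the same 3 libraries, and their part in these levels was not tested.

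**Figure D4:**
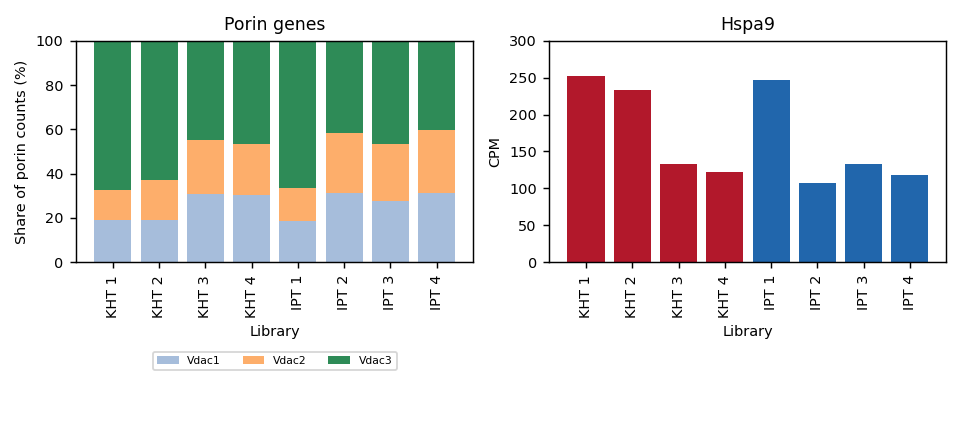
Left, share of Vdac1, Vdac2 and Vdac3 in the summed porin counts, in percent (y axis), by KHT and IPT library (x axis); right, Hspa9 level in CPM (y axis) by the same libraries. Vdac3 takes 62.9 to 67.3% and Hspa9 stands at 234 to 252 CPM in KHT 1, KHT 2 and IPT 1, while Vdac3 takes 40.2 to 46.9% and Hspa9 stands at 107 to 134 CPM in the other 5 libraries.

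**Figure D5:**
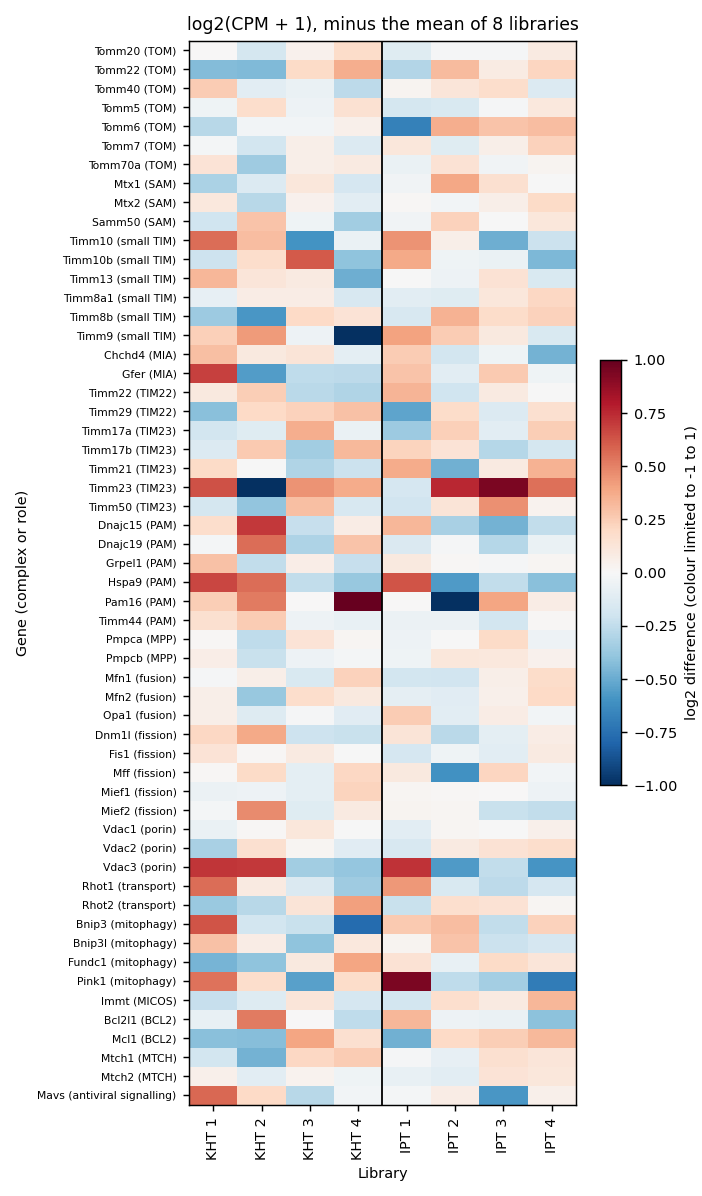
Difference of log2(CPM + 1) from the mean of the 8 KHT and IPT libraries (colour, limited to 1 either way) for each of the 56 genes (y axis) and library (x axis; the line parts KHT from IPT). Vdac3 and Hspa9 are red in KHT 1, KHT 2 and IPT 1 and blue in the other 5, and Timm23 in KHT 2 and Pam16 in IPT 2 are dark blue since they had no count.

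Where 31.0% of all genes tested were called higher in KHT than in NEG, the remaining outer membrane genes gave 1 call, that of Mtch1. This insertase relative stood at 25.3, 20.5, 33.5 and 34.8 CPM in KHT, at 0, 0, 0 and 16.3 CPM in NEG and at 28.7, 27.3, 32.5 and 31.6 CPM in IPT. The log2 fold change was 2.52 ± 0.71 (adjusted p = 0.0138), and its 4 NEG counts were all in NEG 5. Mtch2, the outer membrane insertase, stood at 70.8, 63.5, 70.2 and 66.3 CPM in KHT, at 8.49, 48.2, 26.8 and 73.5 CPM in NEG and at 64.9, 63.5, 75.5 and 73.9 CPM in IPT. NEG 5 lay above all KHT libraries (0.77 ± 0.57, adjusted p = 0.266). None of the 4 mitophagy genes was called: the kinase gene Pink1 (pooled ratio 2.40, counting interval 0.653 to 19.99) and the receptors Bnip3, Bnip3l and Fundc1, the last with no NEG count and too few KHT counts for a bound. The antiapoptotic genes Mcl1 (1.58 ± 0.80) and Bcl2l1 (0.28 ± 0.71), the antiviral adaptor Mavs (2 NEG counts) and Immt of the cristae junctions (1.21 ± 0.87) missed the threshold as well. All 28 NEG counts of Immt lay in NEG 5, at 114 CPM, while KHT stood between 65.6 and 84.3 CPM and IPT between 68.0 and 97.5 CPM.

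By site, 11 of 31 outer membrane genes, 5 of 8 in the intermembrane space, 2 of 9 in the inner membrane and 1 of 6 at the inner membrane and matrix were called higher in KHT against NEG (35.5, 62.5, 22.2 and 16.7%, against 31.0% of all genes tested). Neither of the 2 matrix genes was. The median log2 fold changes were 1.40, 2.70, 1.73, 1.14 and 1.24 in that order, against 1.73 over all genes tested. With genes at 0 in NEG set to their lower bound they were 1.28, 0.79, 1.21, 1.14 and 1.24, against 0.94, so the order of the sites depends on genes without NEG counts. No site was tested against another. The medians between KHT and IPT were -0.01, 0.01, -0.13, 0.30 and -0.07, and the 0.30 of the PAM motor rests on 6 genes, of which Hspa9 and Dnajc15 were high in KHT 1, KHT 2 and IPT 1.

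NEG was also set against IPT, which shows what the controls held relative to the input, and which shares the NEG libraries with the comparison above. The threshold was passed by 19 of the 56 genes (33.9%), against 36.1% of all genes tested: 17 (30.4%) were lower in NEG and 2 (3.57%) higher, against 32.5% and 3.64% of all. The 2 higher genes were Vdac2 (1.31 ± 0.43, adjusted p = 0.0244) and Dnajc19 (1.64 ± 0.52, adjusted p = 0.0208). Libraries did not overlap for 22 genes (39.3%) lower in NEG and 1 (1.79%) higher, against 47.1% and 1.74% of all genes. The median log2 fold change was -1.49 over the list and -1.74 over all genes.

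A wider set of 99 other genes of the same pathways was counted beside the list, and 88 of them were tested. Between KHT and NEG 31 (35.2%) were higher and 3 (3.41%) lower, near the 31.0% and 2.72% of all genes tested, and between KHT and IPT 0 were called, with 1 unadjusted p under 0.05 (Apoo, of the cristae junctions, edgeR adjusted p = 1.00). Trak1 and Trak2 encode the adaptors that join Miro to motors. Trak1 stood at 18.6, 21.7, 17.3 and 21.4 CPM in KHT, at 0 in all NEG libraries and at 18.4, 21.6, 17.1 and 16.2 CPM in IPT, at least 5.07-fold higher in KHT than in NEG (adjusted p = 0.00271). Trak2 had 33.9, 35.6, 42.8 and 38 CPM in KHT and 1 NEG count, a pooled ratio of 30.3 with a counting interval of 5.42 to 1196 (adjusted p = 0.00208). Pgam5, an outer membrane phosphatase, was at least 3.98-fold higher in KHT (adjusted p = 0.00371). The 3 lower genes were Minos1 of the cristae junctions (-2.16 ± 0.54), Hspe1, the matrix co-chaperonin (-2.02 ± 0.67), and Romo1 (-1.53 ± 0.58). Like Vdac2, and unlike Dnajc19 with its 8, 0, 3 and 5, they had most of their NEG counts in NEG 1, 3 and 4, with 13, 19, 15 and 0 for Minos1, 76, 70, 34 and 10 for Hspe1 and 4, 3, 8 and 0 for Romo1. The keratin gene Krt14 had 0, 98, 11 and 22 counts in KHT 1 to 4, 17, 26, 14 and 0 counts in NEG 1, 3, 4 and 5, and 11, 0, 2 and 0 counts in IPT 1 to 4. The endothelial gene Pecam1 had 29, 29, 33 and 50 counts in KHT, 35, 24, 20 and 5 counts in NEG, and 38, 25, 23 and 32 counts in IPT. Krt14 and Pecam1 were low in NEG 5 and higher in the other NEG libraries, as Vdac2 was. The other endothelial marker, Cdh5, was not, with 0, 2, 2 and 2 counts in NEG 1, 3, 4 and 5. It had 67, 33, 158 and 29 counts in KHT 1 to 4, and 114, 145, 57 and 232 counts in IPT 1 to 4. The part of these markers in the results was not tested.

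The genes with the clearest KHT values over NEG lie across the genome (build GRCm38). Timm8a1 spans 134537256 to 134541670 and Timm17b spans 7899336 to 7907652 on chromosome X, Samm50 spans 84192240 to 84216083 on chromosome 15, and Tomm5 spans 45105209 to 45108113 on chromosome 4. Vdac2 lies at 21831561 to 21845879 on chromosome 14, where it overlaps Comtd1. In all, 25 of the 56 gene spans overlap another annotated gene, among them those of Tomm6, Tomm20, Timm23, Dnajc19 and Hspa9, and reads in shared stretches cannot be assigned with certainty without the strand setting of the counting. Tomm5, Samm50, Timm8a1 and Timm17b overlap none.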

How the data were processed

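Values in the deposited file are expected counts (estimated counts for each gene) that the authors had not normalised, and all were whole numbers. kallisto and DESeq2 are named with the builds GRCm38 and mm10, per the submitters' processing notes, while versions and roles are not given in the sources used here. The kit was a stranded one with ribosomal depletion, per the labels' protocols, although the molecule field names polyA RNA.

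Features were named from a gene table (27004 of 27071), and positions came from RefSeq on GRCm38. The members and lists were chosen with earlier results of these data known. KHT, NEG and IPT (12 libraries, NEG 2 left out because it held 0 counts) were compared in 1 fit with edgeR 4.0.16 in R 4.3.3 (TMM, filterByExpr, glmQLFit robust, glmQLFTest), two-sided, with Benjamini-Hochberg adjustment over 10714 genes and a threshold of 0.05. SE is the log2 fold change over the root of F. The fit was tested on simulated data in which NEG was drawn at the IPT level. The condition to pass covered the KHT to IPT estimates alone, so it does not bear on the calls against NEG. Alternatives used DESeq2 1.42.0, limma 3.58.1, other scalings and filters, and fewer libraries.

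Members named with library values were the 10 with the smallest p among those higher in KHT than NEG, those lower, 7 central subunits (Tomm20, Tomm40, Timm23, Hspa9, Opa1, Dnm1l, Vdac1) and the paralogues of these. Other members are named to complete their complex, some with library values, chosen after their values were seen. A gene with 0 NEG counts got a lower bound computed with 3 counts over all NEG libraries, about the upper 95% counting limit, after TMM scaling. Genes with 1 to 3 NEG counts got a ratio of scaled pooled counts with an exact 95% interval. Floors and intervals cover counting error only, and would be too narrow if read mates were counted singly, since values of 2 outnumber values of 1 (not settled). Nothing in the labels says that libraries came from separate cultures, so p-values measure only the spread between these libraries.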

Additional observations from a re-analysis of the deposited data

Results flagged for a closer look

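A library was marked where its gap to the nearest of the other 3 was too large a part of the group's range (above Dixon's 95% critical value for 4 libraries). This marked 32 of 161 groups of 4 values. Most were NEG groups in which 1 library alone held counts, and 17 genes had NEG counts in NEG 5 only. Such a group is always marked, so the total cannot be set against the 1 in 20 or so that chance marks.

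In NEG 5, the values that stood high were those of Tomm5 (4.09 CPM), Tomm7, Timm8b and Timm44 (28.6 CPM each), Tomm22 (40.9 CPM), Timm29 (24.5 CPM), Mfn2 (44.9 CPM), Immt (114 CPM), Mtch1 (16.3 CPM) and Rhot1 (12.3 CPM). The same library stood high at 8.17 CPM for Timm22, Timm23, Mtx1, Fis1, Mief2, Rhot2 and Mavs, which is 2 counts, and low at 4.09 CPM for Timm13. NEG 3 stood high for Timm17a and Mfn1 (24.1 CPM each) and for Chchd4, Samm50 and Pink1 (12.1 CPM each). NEG 4 stood high for Pam16 (13.4 CPM) and NEG 1 for Timm10 (4.24 CPM).

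Outside NEG, 7 values were marked. In KHT, Timm29 stood low at 10.2 CPM in KHT 1 and Mief1 high at 25.3 CPM in KHT 4. In IPT 1, Tomm6 stood low at 5.33 CPM and Rhot1 high at 32.6 CPM. In IPT 3, Pmpca stood high at 44.2 CPM, and Bnip3 (10.4 CPM) and Mavs (3.57 CPM) stood low.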

How the results depend on the processing

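Between KHT and IPT, 0 of the 56 genes were called under each of 23 other settings, with the lowest unadjusted p at 0.0701. Of the 21 genes called between KHT and NEG, Timm8a1, Timm17b, Samm50, Tomm5, Rhot1, Tomm6, Mtch1 and Gfer kept their call under all 23. The 19 genes higher in KHT against NEG became 56 by total counts alone (median of all genes 5.66 in place of 1.73), 11 by the size outside the 9 features, 8 with only those 2 groups fitted, 11 without KHT 1, KHT 2 and IPT 1 (chosen after seeing the data), and 9 to 34 with 1 library left out: 11 without NEG 1, 9 without NEG 4 and 34 without NEG 5. The 2 lower genes became 0 by total counts and without a filter, 1 by RLE, limma voom, halved values, the 2 groups alone and without the 3 libraries, and 0 to 3 with 1 library left out. The 19 genes called between NEG and IPT became 56 by total counts, 30 by DESeq2, 10 with the 2 groups alone, and 10 to 36 with 1 library left out (10 without NEG 1, 12 without NEG 4, 36 without NEG 5). With replicate number as a block, 33 genes exceeded NEG in KHT and 35 were called between NEG and IPT. Only NEG had a library numbered 5, so the block set NEG 5 aside, much as leaving it out did. Same-numbered libraries did not deviate together (over 4671 genes, KHT correlated with IPT at 0.037, -0.513, 0.17 and 0.0752, and with NEG at -0.255, -0.198 and 0.146), so the numbers were not taken as pairs.

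Signs turned as follows on the log2 scale. Against NEG, Dnajc19 and Vdac2 became 2.70 each by total counts, and Timm23 became -0.0815 by limma voom. Against IPT, Tomm20 became -0.0078 by RLE, -0.22 by total counts and -0.0071 by DESeq2, and Vdac1 became -0.0189 by RLE, -0.23 by total counts and -0.0100 by DESeq2. Dnm1l became -0.14 by total counts and -0.13 without the 3 libraries. With 1 library left out, Tomm20 ran from -0.0320 to 0.0928, Dnm1l from -0.0249 to 0.18 and Vdac1 from -0.0134 to 0.0524. The cause of these changes was not tested. Depth limits NEG most, where 516 counts cover the 56 genes and 21 genes have at most 3.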
